A study of Mus musculus with 8 samples.

Results

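The genes described here are 7 genes characteristic of germinal centre B cells, Bcl6, Mef2b, Mybl1, S1pr2, Rgs13, Fas and Basp1, out of 18193 genes measured. They were taken by name, as every probe set (a group of short array probes against 1 transcript) that the platform annotation gives to 1 of these symbols, which yielded 10 probe sets: 2 each for Bcl6, Mybl1 and S1pr2 and 1 each for the other genes. A further probe set is listed for both Mef2b and its neighbour Borcs8 and was kept apart. The RNA came from sorted bone marrow cells positive for the surface protein Sca1 and negative for lineage markers (Sca1+Lin-), a fraction that holds blood stem and progenitor cells, and it was amplified and labelled for 1-colour Affymetrix arrays. Of the 8 arrays, 5 carried RNA of animals with the Sca1-MALT1 transgene and 3 RNA of wild-type (WT) animals. Its name points to expression of MALT1 under control of Sca1 sequences; MALT1 is a scaffold and protease of antigen receptor signalling that is an oncogene of MALT lymphoma. The labels give no strain, age, sex, pooling or number of transgenic lines. The question of the comparison is how expression in the Sca1+Lin- fraction of the transgenic mice differs from that of WT.

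Germinal centres are structures in lymph nodes, spleen and gut lymphoid tissue where activated B cells divide, mutate their antibody genes and are selected by helper T cells. BCL6, a transcriptional repressor, holds B cells in this state, and MEF2B is a transcription factor that activates BCL6. S1PR2 keeps the cells inside the centre, RGS13 shortens chemokine receptor signals, and FAS, a death receptor, takes part in their elimination. Bone marrow normally has no germinal centres, and several of these genes are used elsewhere, for example Bcl6 in myeloid cells and follicular helper T cells, Rgs13 in mast cells and Fas in many activated cells.

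Signals were log2 values made by the authors with RMA, and array medians over all probe sets lay between 6.40 and 6.48, with lower quartiles between 4.94 and 5.04. Malt1 itself, by mouse probes that need not detect a transgene of another species, had a log2 difference of 0.49 (SE 0.22, limma adjusted p = 0.507) between Sca1-MALT1 at 9.83 and WT at 9.34. Sca1-MALT1 replicates 2 and 4 had high Xist signal, 13.09 and 12.46, against 6.20 to 6.58 on the other 6 arrays. Lists of marker genes showed what the sorted fraction contained, each summarised by the mean log2 signal of its genes on an array. The mean of 11 stem and progenitor markers ran from 8.33 to 10.40 in Sca1-MALT1 and from 9.43 to 10.82 in WT. That of 10 early B cell markers ran from 7.74 to 8.23 in Sca1-MALT1 and from 9.99 to 10.89 in WT, and 4 of these genes fell past the limma threshold. That of 9 mature B cell markers ran from 8.26 to 9.39 in Sca1-MALT1 and from 9.51 to 10.19 in WT. That of 11 plasma cell markers ran from 10.14 to 11.90 in Sca1-MALT1 and from 8.62 to 9.04 in WT, and Jchain, a gene of antibody-secreting cells, rose past it as well. Transcripts of mature blood cells were thus present beside those of progenitors, although the cells were sorted as lineage negative. In bulk RNA of this kind, fewer cells of a type and less RNA per cell cannot be told apart.

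None of the 7 genes passed the test between Sca1-MALT1 and WT. The test was limma's moderated test over all 18193 genes, with 1 probe set per gene (the brightest) and a Benjamini-Hochberg adjusted p under 0.05; it called 16 genes, 0.0879% of those tested, with 8 (0.044%) higher and 8 (0.044%) lower. Adjusted p-values of the 7 genes ran from 0.461 to 0.995. With all 10 probe sets read from a limma fit over 45037 probe sets, which called 0.06%, again 0 passed, and the lowest adjusted p was 0.435. At an unadjusted p under 0.05 the limma fits gave 1 of the 7 genes (Mef2b), against 10.2% of all genes, and 2 of the 10 probe sets (Mef2b and 1 of S1pr2), against 9.47% of all probe sets. The groups overlapped in all 10 probe sets; over the array they were apart in 6.83% of probe sets and in 7.13% of genes. By sign 4 genes were higher and 3 lower in Sca1-MALT1, against 50.7% of all genes higher. The median log2 difference of the 7 genes, Sca1-MALT1 minus WT, was 0.0047, beside 0.0040 over all genes. That median is the value of Rgs13, a probe set near the lower end of the arrays, and the 7 genes lay on both sides of it; their median absolute difference was 0.37, beside 0.15 over all genes. Without Rgs13 and Mybl1, which a filter on dim genes removed, the median of the other 5 was 0.37.

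**Figure D1:**
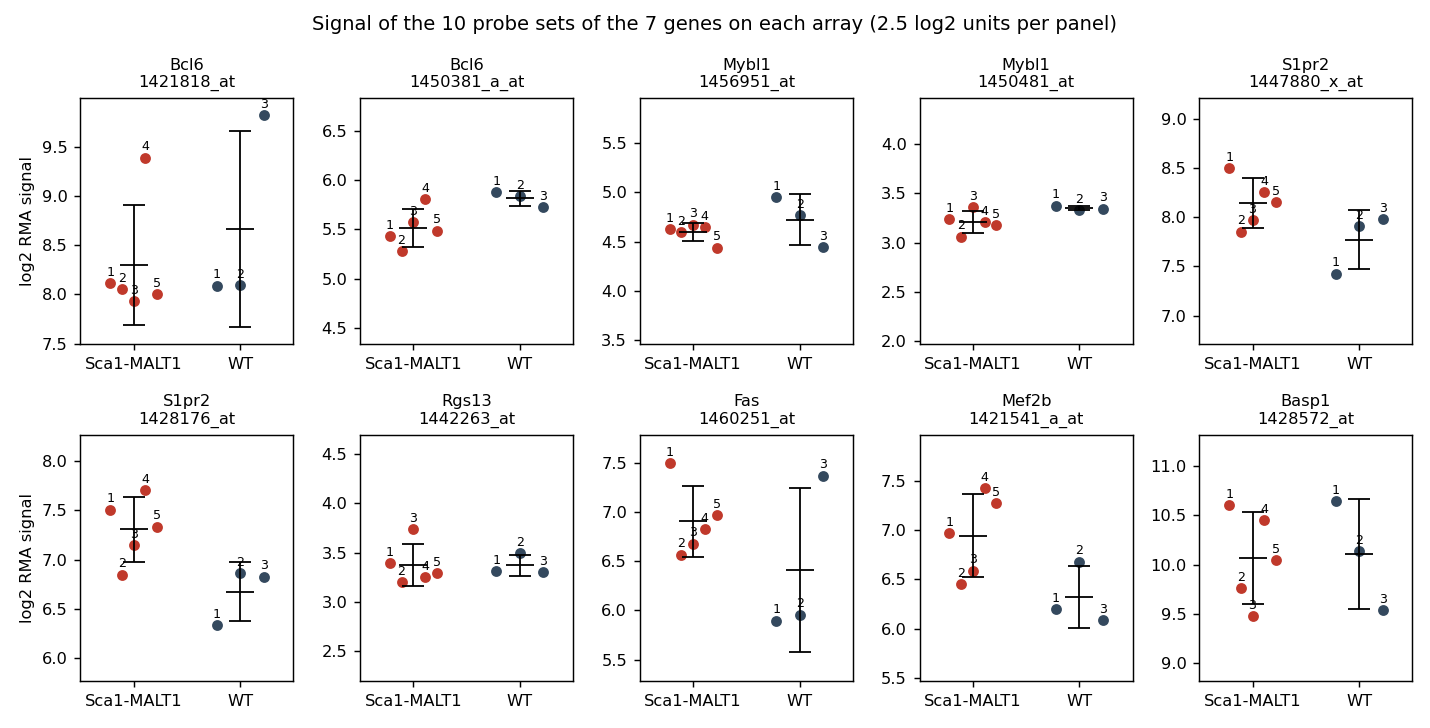
Log2 RMA signal of the 10 probe sets on each array, Sca1-MALT1 (left, red) and WT (right, dark), with replicate numbers beside the points and bars for mean and SD (n = 5 and 3). All panels span the same range, so the wide spread of Bcl6 1421818_at and Fas and the narrow spread of Mybl1 and Rgs13 can be compared; the groups overlap in every panel.

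**Figure D2:**
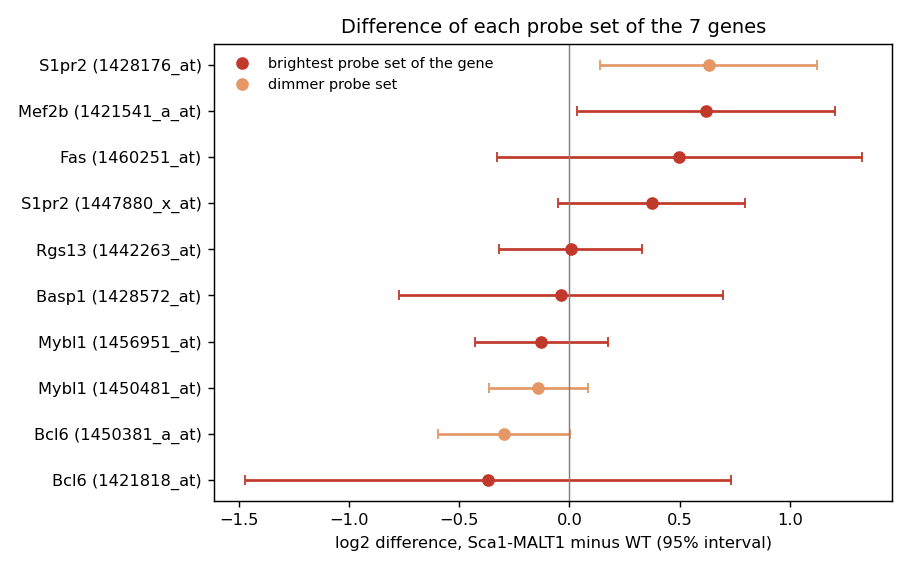
Log2 difference of each of the 10 probe sets, Sca1-MALT1 minus WT, with 95% intervals from the fit over all probe sets. The intervals of Mef2b and of S1pr2 1428176_at lie above 0 before adjustment for the number of probe sets tested, and the interval of Bcl6 1421818_at is the widest of the 10.

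Bcl6, the repressor that defines the germinal centre state, differed more between arrays of the same genotype than between genotypes by the brighter of its 2 probe sets. Its brighter probe set, 1421818_at, read 8.11, 8.06, 7.93, 9.39 and 8.00 in Sca1-MALT1 replicates 1 to 5, against 8.09, 8.10 and 9.82 in WT replicates 1 to 3. One array of each genotype stood apart at the top, Sca1-MALT1 replicate 4 and WT replicate 3, and the other 6 arrays lay between 7.93 and 8.11. The means were 8.30 ± 0.61 in Sca1-MALT1 (SD, n = 5) and 8.67 ± 0.99 in WT (n = 3). The log2 difference was -0.37 (SE 0.48, 95% interval -1.46 to 0.73, limma adjusted p = 0.839). Without WT replicate 3 it was 0.21 (limma adjusted p = 0.906), and without Sca1-MALT1 replicate 4 it was -0.64 (limma adjusted p = 0.565), so that 1 array set its sign. Over all 8 arrays the SD of Bcl6 was 0.73, and 7.53% of genes had a larger one. The dimmer probe set, 1450381_a_at, lay below the median of all probe sets on every array and did not show the same 2 high arrays. It read 5.43, 5.28, 5.57, 5.80 and 5.49 in Sca1-MALT1, against 5.88, 5.84 and 5.73 in WT, a log2 difference of -0.30 (SE 0.13, limma adjusted p = 0.531). Here 4 of 5 Sca1-MALT1 arrays were below all WT arrays, and replicate 4 overlapped them.

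The 2 arrays with high Bcl6 were also those with the highest mean of monocyte and macrophage markers. That mean, over 9 genes, was 11.01 in Sca1-MALT1 replicate 4 and 9.27 to 10.08 in the other Sca1-MALT1 arrays, against 11.09 in WT replicate 3 and 9.87 and 10.30 in the other WT arrays. Csf1r, the receptor of the macrophage growth factor, read 11.64 in Sca1-MALT1 replicate 4 and 12.38 in WT replicate 3, and lay between 8.63 and 10.88 on the other 6 arrays. The mean of 9 neutrophil markers was likewise highest on these arrays, 13.81 in Sca1-MALT1 replicate 4 and 12.74 in WT replicate 3, within ranges of 10.33 to 13.81 in Sca1-MALT1 and 12.04 to 12.74 in WT. The same 2 arrays were the highest of the 8 for 5 of the 9 monocyte and macrophage genes and for 7 of the 9 neutrophil genes, against 5.50% of all genes. The mean of 8 mast cell and basophil markers was also highest on them, 7.91 in Sca1-MALT1 replicate 4 and 7.22 in WT replicate 3, and 2 of the 8 genes had these as their highest arrays. Their part in the Bcl6 signal was not tested. Follicular helper T cells are another known source of Bcl6. The mean of 10 of their markers ran from 7.24 to 8.82 in Sca1-MALT1, lowest in replicate 4, and from 7.83 to 8.51 in WT. The part of these T cells in the Bcl6 signal was not tested either. By root mean square difference of log2 values centred on each gene's mean over the 8 arrays, the genes whose pattern was most like that of Bcl6 were Ccno at 0.12, Sqor at 0.15 and Card10 at 0.17.

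**Figure D3:**
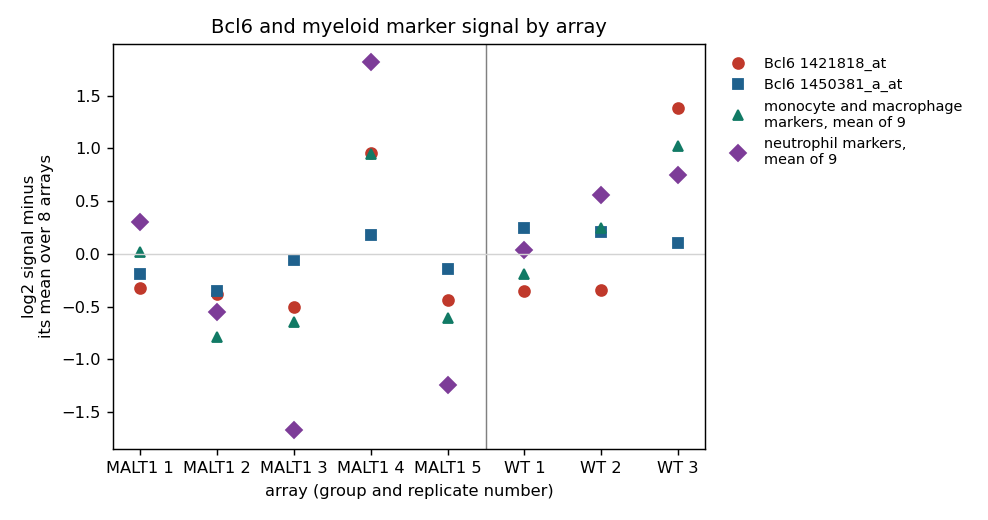
Log2 signal of both Bcl6 probe sets and mean log2 signal of the monocyte and macrophage and the neutrophil markers, each minus its mean over the 8 arrays, by array, with Sca1-MALT1 left of WT. Bcl6 1421818_at and both marker means have their 2 highest arrays in Sca1-MALT1 replicate 4 and WT replicate 3, and Bcl6 1450381_a_at does not.

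The Bcl6 gene has 2 annotated start sites, and their promoter windows are shown because BCL6 is known to repress its own gene and because Bcl6 was the most variable of the 7 genes. RefSeq promoter windows (build GRCm38.p6, 250 bases before to 50 after a start) were available for 6 of the 7 genes, Mybl1 not among them, and were searched on both strands for TTCNNNGAA, a form of the sequence bound by BCL6 that is also the core of STAT protein sites and reads the same on both strands. The window of the upstream start lies at chr16:23988803-23989102 and that of the downstream start at chr16:23981234-23981533, both on the minus strand; both are printed 5′ to 3′ along the gene, with matches in capitals.
Bcl6 upstream start: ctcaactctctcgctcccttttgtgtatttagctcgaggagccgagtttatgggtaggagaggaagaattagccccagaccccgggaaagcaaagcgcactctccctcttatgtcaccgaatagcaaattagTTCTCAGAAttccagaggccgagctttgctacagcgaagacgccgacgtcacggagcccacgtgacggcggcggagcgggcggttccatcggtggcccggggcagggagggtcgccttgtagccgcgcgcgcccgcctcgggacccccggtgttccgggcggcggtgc
Bcl6 downstream start: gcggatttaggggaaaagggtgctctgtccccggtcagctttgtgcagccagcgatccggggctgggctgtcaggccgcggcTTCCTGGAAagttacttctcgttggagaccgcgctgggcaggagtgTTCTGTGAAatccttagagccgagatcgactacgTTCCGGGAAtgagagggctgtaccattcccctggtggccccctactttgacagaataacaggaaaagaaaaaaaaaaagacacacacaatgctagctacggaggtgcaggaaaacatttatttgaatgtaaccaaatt

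The upstream window held 1 match, its first base at -118 from the start, and the downstream window held 3, at -168, -122 and -88. Of all 32851 promoter windows of this length, 8.30% held at least 1 match and 11 windows held 3 or more. The Fas window held 1 match, at -93, and the windows of Mef2b, S1pr2, Rgs13 and Basp1 held none of these letters. These are matches of letters and not measured binding sites.

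Mef2b, the activator of Bcl6, had the largest difference of the 7 genes by its brightest probe set, and it did not pass. Its probe set 1421541_a_at read 6.97, 6.45, 6.59, 7.43 and 7.28 in Sca1-MALT1, against 6.20, 6.68 and 6.09 in WT. Replicates 1, 4 and 5 of Sca1-MALT1 lay above all WT arrays, while replicates 2 and 3 lay below WT replicate 2. The means were 6.94 ± 0.42 in Sca1-MALT1 (SD, n = 5) and 6.32 ± 0.31 in WT (n = 3), a log2 difference of 0.62 (SE 0.26, 95% interval 0.03 to 1.20, limma adjusted p = 0.461). On the linear scale that is 1.54-fold with an interval of 1.02 to 2.30. An absolute difference at least this large was found in 8.28% of all genes. The WT mean lay below the median of all probe sets, where RMA gives no call of presence. The probe set shared by Borcs8 and Mef2b read 8.14 ± 0.30 in Sca1-MALT1 (n = 5) and 8.17 ± 0.37 in WT (n = 3), a log2 difference of -0.03 (SE 0.22, limma adjusted p = 0.978), and cannot be assigned to either gene. The genes closest to Mef2b in pattern were Adamts16 at a root mean square difference of 0.13, Rgs10 at 0.13 and Gdpd1 at 0.14.

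S1pr2, the sphingosine 1-phosphate receptor that confines B cells to the germinal centre, was higher in Sca1-MALT1 by both probe sets, neither past the threshold. The brighter one, 1447880_x_at, whose suffix marks probes that can also match other transcripts, read 8.49, 7.85, 7.97, 8.25 and 8.15 in Sca1-MALT1, against 7.42, 7.91 and 7.98 in WT. Its log2 difference was 0.37 (SE 0.19, 95% interval -0.05 to 0.80, limma adjusted p = 0.541). The dimmer one, 1428176_at, read 7.51, 6.85, 7.14, 7.70 and 7.33 in Sca1-MALT1, against 6.33, 6.87 and 6.83 in WT. There 4 of 5 Sca1-MALT1 arrays lay above all WT arrays, and replicate 2 overlapped with them. Its log2 difference was 0.63 (SE 0.21, 95% interval 0.14 to 1.12, limma adjusted p = 0.435 over all probe sets). WT replicate 1 was the lowest array by both probe sets; without it the log2 difference of the brighter one was 0.20 (limma adjusted p = 0.841).

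Within Sca1-MALT1, replicates 1, 4 and 5 had the 3 highest values of Mef2b, of both S1pr2 probe sets, of Fas and of Basp1. No probe set of Bcl6, Mybl1 or Rgs13 had exactly these arrays as its 3 highest, although both Bcl6 probe sets were highest on replicate 4. Basp1 did, with a log2 difference between genotypes of -0.04. The same 3 arrays had the highest plasma cell marker means. These means, over 11 genes, were 11.90, 10.14, 10.67, 11.12 and 11.21 in Sca1-MALT1 replicates 1 to 5, against 8.62, 9.04 and 8.88 in WT. Replicates 1, 4 and 5 were the highest 3 of the 5 Sca1-MALT1 arrays for 7 of the 11 plasma cell genes and for 17.9% of all genes. The monocyte and macrophage mean and the mast cell and basophil mean were also highest on these 3 arrays among Sca1-MALT1, which held for 4 of the 9 and 3 of the 8 single genes. All 11 plasma cell markers were higher in Sca1-MALT1, 1 of them past the threshold. The part of these 3 marker lists in the Mef2b, S1pr2, Fas and Basp1 signals was not tested.

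**Figure D4:**
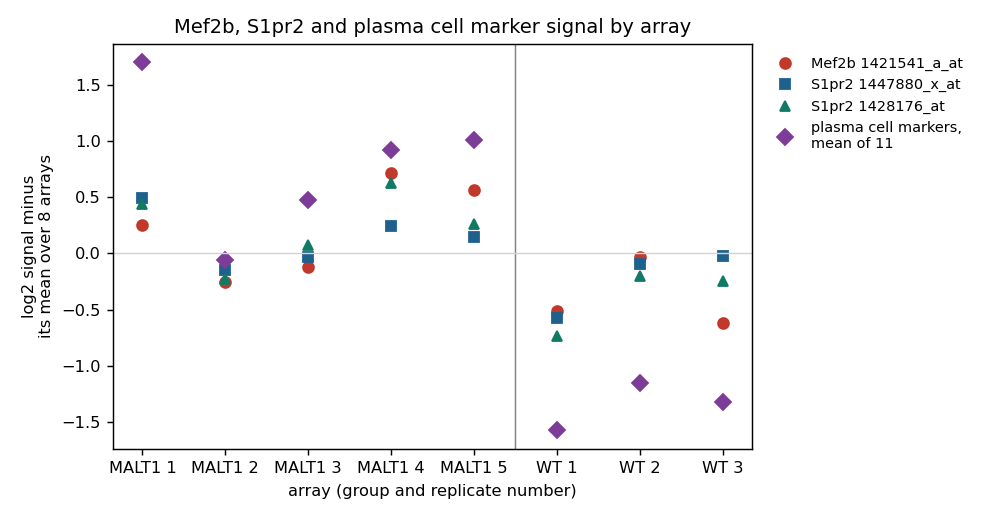
Log2 signal of Mef2b, of both S1pr2 probe sets and mean log2 signal of 11 plasma cell markers, each minus its mean over the 8 arrays, by array, with Sca1-MALT1 left of WT. Sca1-MALT1 replicates 1, 4 and 5 are the highest of the Sca1-MALT1 arrays in all 4 series, and the plasma cell means of WT lie below all of Sca1-MALT1.

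Fas, the death receptor, split the WT arrays. It read 7.49, 6.57, 6.68, 6.82 and 6.96 in Sca1-MALT1, against 5.89, 5.96 and 7.37 in WT. All 5 Sca1-MALT1 arrays were above WT replicates 1 and 2, and 4 of them were below WT replicate 3. The means were 6.90 ± 0.36 in Sca1-MALT1 (SD, n = 5) and 6.41 ± 0.83 in WT (n = 3), a log2 difference of 0.50 (SE 0.36, 95% interval -0.32 to 1.32, limma adjusted p = 0.692). Without WT replicate 3 it was 0.98 (limma adjusted p = 0.321), and without WT replicate 1 it was 0.24 (limma adjusted p = 0.924). WT replicate 3 is also the WT array with high Bcl6 and monocyte markers. Sca1-MALT1 replicate 4, the other array with both, read 6.82 for Fas. The highest Fas value, 7.49, was in Sca1-MALT1 replicate 1. The part of monocytes in the Fas signal was not tested. The genes most like Fas in pattern were Glcci1 at a root mean square difference of 0.21, Miip at 0.25 and Hgsnat at 0.25.

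Mybl1, the germinal centre member of the MYB family, and Rgs13 gave signals near the lower end of the arrays. The brighter Mybl1 probe set, 1456951_at, read 4.62, 4.59, 4.67, 4.65 and 4.44 in Sca1-MALT1, against 4.95, 4.77 and 4.45 in WT. Its log2 difference was -0.13 (SE 0.13, 95% interval -0.43 to 0.18, limma adjusted p = 0.794). The dimmer one, 1450481_at, lay between 3.06 and 3.36 in Sca1-MALT1 and between 3.33 and 3.38 in WT, and its log2 difference was -0.14 (SE 0.10, limma adjusted p = 0.699). Rgs13 read 3.40, 3.20, 3.74, 3.25 and 3.29 in Sca1-MALT1, against 3.31, 3.50 and 3.30 in WT. These 3 probe sets lay below the lower quartile of all probe sets on every array, so that a signal above background could not be judged in either genotype. The log2 difference of Rgs13 was 0.0047 (SE 0.14, 95% interval -0.32 to 0.33, limma adjusted p = 0.995). Mast cells are a known source of Rgs13, and the mean of 8 mast cell and basophil markers ran from 5.67 to 7.91 in Sca1-MALT1 and from 6.73 to 7.22 in WT. The part of mast cells in the Rgs13 signal was not tested.

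Basp1, a membrane-bound protein of growing nerve endings that is also expressed in B cells, read well above the array medians on all 8 arrays and did not separate the genotypes. It read 10.60, 9.76, 9.48, 10.46 and 10.05 in Sca1-MALT1, against 10.65, 10.13 and 9.54 in WT. The highest and the second lowest of the 8 values were both WT, and the ranges nearly coincided. The log2 difference was -0.04 (SE 0.32, 95% interval -0.77 to 0.69, limma adjusted p = 0.984), which leaves room for a change of up to 1.62-fold upward or to 0.586 of the WT level. Pdk3 at a root mean square difference of 0.19, Uqcrq at 0.21 and Gpr89 at 0.21 were closest to it in pattern.

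Relatives of the 7 genes numbered 26 measured genes; 13 were higher and 13 lower in Sca1-MALT1 (median log2 difference -0.01) and 0 passed by limma, while 5 had an unadjusted p under 0.05, against 10.2% of all genes. Marcks and Marcksl1, membrane and actin proteins related to BASP1 in their domain of action, had the lowest unadjusted p-values and did not pass. Marcks read 9.84 at the median of Sca1-MALT1, with all 5 arrays below all WT arrays, a log2 difference of -1.58 (SE 0.30, limma adjusted p = 0.172) with 1 sign in all 7 of its probe sets. Marcksl1 stood at -1.53 (SE 0.39, limma adjusted p = 0.271). Myb, the progenitor member of the MYB family, stood at -1.57 (SE 0.67, limma adjusted p = 0.486) with no overlap between the groups, and Rgs18 at -0.79 (SE 0.30, limma adjusted p = 0.415).

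Genes that act with BCL6 or under it were read from 2 lists. Of 8 measured corepressors, 5 were higher and 3 lower (median 0.06), and 0 passed by limma. The lowest unadjusted p-values belonged to Ctbp1 at 0.44 (SE 0.15, limma adjusted p = 0.383), with no overlap between the groups, and to Hdac3, the deacetylase that BCL6 recruits through its corepressors, at -0.46 (SE 0.16, limma adjusted p = 0.384), also without overlap. Of 17 measured genes that BCL6 is known to repress, 10 were higher and 7 lower (median 0.17), and 0 passed by limma; 4 had an unadjusted p under 0.05, against 10.2% of all genes. Prdm1, which drives plasma cell fate, read 11.31, 9.62, 9.83, 9.94 and 9.73 in Sca1-MALT1, against 6.29, 8.12 and 7.59 in WT. Its groups did not overlap and its log2 difference was 2.76 (SE 0.49, limma adjusted p = 0.127). Irf4, a second plasma cell regulator, stood at 1.74 (SE 0.53, limma adjusted p = 0.347), and both genes are also among the 11 plasma cell markers. Bmi1 stood at 0.66 (SE 0.28, limma adjusted p = 0.477) and the chemokine gene Ccl3 at -0.73 (SE 0.24, limma adjusted p = 0.377).

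Transcription factors and other regulators of the germinal centre, apart from the 7 genes, were mostly lower by sign. Of 17 measured, 11 were lower and 6 higher (median -0.26), and 0 passed by limma; 6 lower and 1 higher had an unadjusted p under 0.05, against 4.49% of all genes lower and 5.69% higher. Spib, an ETS factor, was lower in all 5 Sca1-MALT1 arrays than in any WT array, with 9.39, 8.13, 9.32, 7.72 and 8.77 in Sca1-MALT1, against 10.29, 10.89 and 11.47 in WT, a log2 difference of -2.21 (SE 0.43, limma adjusted p = 0.18). The methyltransferase gene Ezh2 read 10.24, 10.85, 10.63, 10.55 and 10.27 in Sca1-MALT1, against 11.67, 11.09 and 11.68 in WT, a log2 difference of -0.97 (SE 0.20, limma adjusted p = 0.194). Pax5 stood at -1.16 (SE 0.24, limma adjusted p = 0.204) and Tcf3 at -0.78 (SE 0.18, limma adjusted p = 0.224). Their groups also did not overlap, which held for 7.13% of all genes. The Pax5 values of Sca1-MALT1 all lay below the array medians. All 4 genes are expressed in B cell precursors as well as in germinal centres, and the early B cell marker means, given above, were lower in every Sca1-MALT1 array than in every WT array. Their part in these values was not tested.

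Genes that place B cells in follicles and germinal centres gave 1 value near the threshold. Of 20 measured, 10 were higher and 10 lower (median 0.03), and 0 passed by limma. Sphk1, a kinase that makes the ligand of S1PR2, read 8.48, 9.03, 8.61, 9.16 and 8.72 in Sca1-MALT1, against 7.48, 7.37 and 6.66 in WT. The groups did not overlap and the log2 difference was 1.63 (SE 0.23, limma adjusted p = 0.0673); averaged over its 2 probe sets it was 0.91 (limma adjusted p = 0.215). With array quality weights Sphk1 passed, at 1.54 (limma adjusted p = 0.0481), and in the other 15 alternatives it did not, with adjusted p-values up to 0.242. The chemokine gene Cxcl12 stood at 2.35 (SE 0.76, limma adjusted p = 0.37) and Rgs1 at 0.86 (SE 0.37, limma adjusted p = 0.488). The other S1P receptors ran from -0.56 for S1pr5 to 0.87 for S1pr3.

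**Figure D5:**
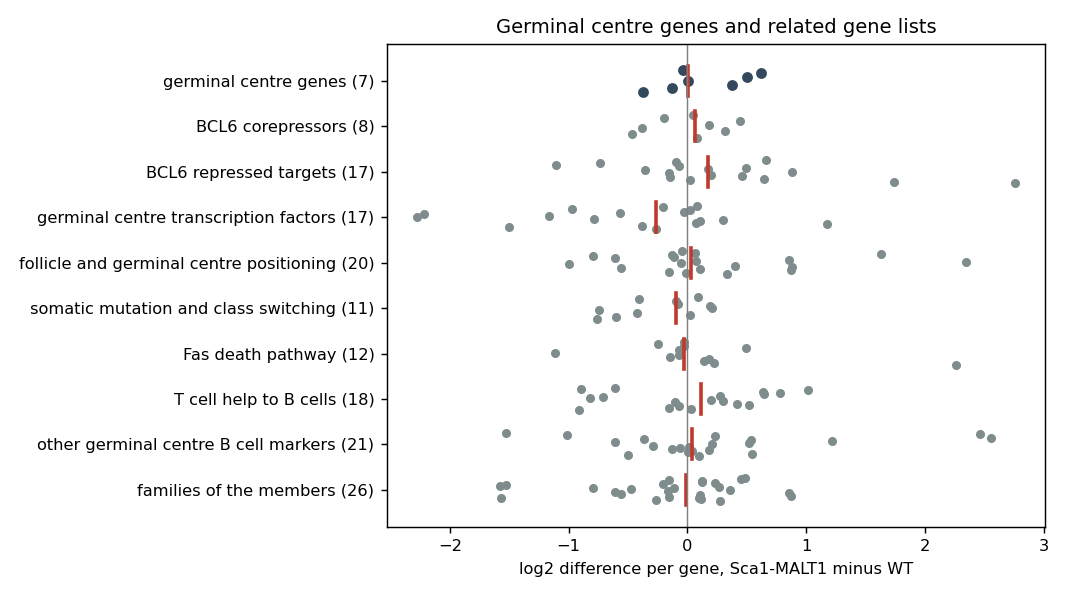
Log2 difference per gene, Sca1-MALT1 minus WT, for the 7 germinal centre genes (top) and 9 related lists, with the number measured in brackets and a red bar at each median. The 7 genes lie between -0.37 and 0.62, and the medians of the lists lie between -0.26 and 0.17; some genes belong to several lists.

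The remaining lists held 0 genes past the threshold by limma. In the Fas death pathway 5 of 12 genes were higher (median -0.03) and 2 had an unadjusted p under 0.05, against 50.7% and 10.2% of all genes. Fasl, the ligand of FAS, read 10.68, 11.68, 11.40, 8.55 and 9.96 in Sca1-MALT1, against 8.18, 8.53 and 7.85 in WT, a log2 difference of 2.26 (SE 0.65, limma adjusted p = 0.32). T and NK cells are its usual source, and the mean of 9 NK cell markers ran from 8.23 to 10.21 in Sca1-MALT1 and from 8.71 to 9.06 in WT, lowest of all arrays in Sca1-MALT1 replicate 4, which also had the lowest Fasl of its group. The mean of 10 T cell markers ran from 8.55, again in replicate 4, to 9.82 in Sca1-MALT1 and from 8.69 to 8.94 in WT, and the part of both cell types in the Fasl signal was not tested. Fcmr, an IgM receptor of B cells, stood at -1.12 (SE 0.46, limma adjusted p = 0.461). Of 11 somatic mutation and class switch genes 7 were lower (median -0.10) and 0 had an unadjusted p under 0.05. The lower ones included 2 genes of base excision repair, Ung at -0.76 (limma adjusted p = 0.624) and Apex1 at -0.74 (limma adjusted p = 0.569). Of 18 genes of T cell help to B cells 10 were higher (median 0.12); Cd40, the receptor of the helper signal, stood at -0.91 (SE 0.34, limma adjusted p = 0.409) with 1 of its 3 probe sets of the other sign, and Il4ra at 0.42 (SE 0.16, limma adjusted p = 0.434).

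Of 21 other genes used as germinal centre B cell markers 13 were higher and 8 lower (median 0.04). The list mixes genes that these cells raise with genes that they reduce, such as Cmah, so its counts and median have no single reading. Fcer2a, at -1.02, is also counted among the 9 mature B cell markers. By limma 3 higher and 1 lower had an unadjusted p under 0.05, against 5.69% of all genes higher and 4.49% lower. The lower one was Marcksl1, given above among the relatives of the 7 genes, at -1.53 (SE 0.39, limma adjusted p = 0.271). Eaf2, an elongation factor partner expressed in germinal centre and plasma cells, read 9.81, 8.26, 8.75, 9.41 and 9.38 in Sca1-MALT1, against 6.26, 6.27 and 7.18 in WT. Its groups did not overlap, and the log2 difference was 2.55 (SE 0.37, limma adjusted p = 0.0717); without Sca1-MALT1 replicate 2 it passed, at 2.77 (limma adjusted p = 0.0255). It did not pass in the other 15 alternatives, and the adjusted p was 0.274 with the replicate block, the highest of them. Slc41a2, a magnesium transporter, read 8.87, 5.74, 6.75, 7.32 and 7.66 in Sca1-MALT1, against 5.06, 4.23 and 5.11 in WT (log2 difference 2.46, SE 0.62, limma adjusted p = 0.271). Its WT mean of 4.80 lay below the lower quartile of every array, where RMA gives no call of presence. Both genes were lowest of their group in Sca1-MALT1 replicate 2, the array with the lowest plasma cell mean of that group. The part of plasma cells in both signals was not tested. Gcsam, which is named for the germinal centre, read 7.34 in Sca1-MALT1 replicate 1 and 4.45 to 5.93 in the other Sca1-MALT1 arrays, against 5.33 to 5.66 in WT, a log2 difference of 0.10 (SE 0.60, limma adjusted p = 0.975). All Gcsam values except that of Sca1-MALT1 replicate 1 lay below the array medians. Cmah, an enzyme that germinal centre B cells reduce, stood at 1.22 (SE 0.38, limma adjusted p = 0.356), with 1 sign in all 6 of its probe sets.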

How the data were processed

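The deposited table gave 1 log2 value per probe set for 8 arrays, which the authors made with RMA (per the submitters' processing notes, without a version). Log2 values were used as deposited, since they ran from 2.73 to 15.41 with like medians. After 64 control probe sets were left out, 45037 remained, 34945 of them with 1 gene symbol. Gene symbols came from the platform annotation and were brought up to date by Entrez identifier (RefSeq, GRCm38.p6, names only), and the brightest probe set by mean over all arrays stood for each of 18193 genes. Genotype was fitted with limma 3.58.1 in R 4.3.3, with Benjamini-Hochberg adjustment over all genes or all probe sets, two-sided, threshold 0.05; the fit was tested on simulated data. Differences are Sca1-MALT1 minus WT. The number of arrays limits the precision, and p-values measure the spread between samples that the labels do not state to be separate animals.

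The 7 genes and all lists were chosen with earlier results of these data known. Named list genes were those past the threshold and up to 4 with the lowest unadjusted p; pattern likeness was computed for genes with an SD of at least 0.4 over the arrays, naming 3 each. Gcsam, S1pr3, S1pr5 and the markers of single arrays were named after their values were seen. The 16 alternatives were other normalizations, a filter on dim genes, the mean of probe sets, other variance models, a replicate block, a term for Xist signal and leaving out each array.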

Additional observations from a re-analysis of the deposited data

Results flagged for a closer look

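Bcl6 probe set 1421818_at in Sca1-MALT1 replicate 4, at a log2 signal of 9.39, lay far from the other Sca1-MALT1 arrays, which ran from 7.93 to 8.11. The gap to the nearest array was 0.876 of the range of the group, above the Dixon limit of 0.71 for 5 arrays. It was the only such value among the 10 probe sets, each tested in Sca1-MALT1 alone; about 1 group in 20 is picked out in this way by chance. WT, with 3 arrays, was not tested.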

How the results depend on the processing

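Of the 7 genes 0 passed in any of the 16 alternatives, although the filter on dim genes removed Mybl1 and Rgs13 and so tested 5, and of the 10 probe sets 0 passed in the 15 alternatives that kept single probe sets (the filter on dim genes also removed some of these). The lowest adjusted p of a gene was 0.321 (Fas without WT replicate 3), and where tested, Mef2b, S1pr2 and Fas kept a positive and Mybl1 a negative sign. The genes called over the whole array numbered 16, against 28 with array quality weights, 29 with the Xist term, 0 with the replicate block (2034 at an unadjusted p under 0.05 by limma) and 8 to 38 with 1 array left out (8 without Sca1-MALT1 replicate 3, 38 without replicate 2). Replicate numbers are shared only as numbers: same-numbered arrays deviated with correlations of -0.207, -0.078 and 0.0034 over genes, and the replicate block gave -0.63 for Bcl6 and 0.35 for Mef2b. The median of the 7 genes was 0.0047, against 0.37 over the 5 genes kept by the filter on dim genes and -0.00075 to 0.21 with 1 array left out. Signs reversed with 1 array left out for Bcl6 (-0.66 to 0.21), Basp1 (-0.32 to 0.23), Rgs13 (-0.086 to 0.067) and Mcpt4 (-0.0202 to 0.17); the cause was not tested.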
